A study of Homo sapiens with 28 samples.

Results

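The genes described here are the HOX cluster genes, the 39 protein-coding genes of the count table whose symbol is HOX followed by a cluster letter from A to D and a number. They were chosen by symbol alone out of 19645 protein-coding genes, and out of 60483 table entries with an Ensembl identifier. HOXA has 11 members, HOXB has 10, HOXC has 9 and HOXD has 9. They were measured by RNA sequencing in 28 libraries from A549 and H1944, human lung adenocarcinoma cell lines that here carry MGT#1-mVenus, a synthetic fluorescent reporter built to read out a mesenchymal state. Cells received TGF-β1, a cytokine that drives epithelial cells towards a mesenchymal form, at 5 ng/ml, or GSK126, an inhibitor of the histone methyltransferase EZH2, at 5 µM. After 11 days they were sorted by flow cytometry into mVenus-high and mVenus-low gates. Naive cells carried the reporter but were neither treated nor sorted. The H1944 groups were TGF-β1 high, TGF-β1 low, GSK126 high, GSK126 low and naive, with 3 libraries each. The A549 groups were TGF-β1 high (3 libraries), TGF-β1 low (2), GSK126 high (2), GSK126 low (3) and naive (3). The replicate libraries are lettered A to C. The labels do not say that they came from separate cultures, so p-values measure the spread between these libraries.

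HOX genes encode homeodomain transcription factors that give cells a position along the head-to-tail axis of the embryo. Within a cluster the genes are lined up by number, with low numbers at the 3′ end used early and towards the head, and high numbers at the 5′ end used later and towards the tail and limb tips; genes of the same number in different clusters are paralogs. Polycomb repressive complex 2, whose catalytic subunit is EZH2, places the histone mark H3K27me3 over silent HOX genes, and MLL complexes keep active ones on. Adult tissues and the tumours that come from them usually keep part of a regional HOX code. In the mouse Hoxa5 is needed for the lung to develop normally.

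On GRCh38 the HOXA members lie on the minus strand at chr7:27092993-27200106, the HOXB members on the minus strand at chr17:48528526-48729178, the HOXC members on the plus strand at chr12:53938765-54056030 and the HOXD members on the plus strand at chr2:176092891-176190907. HOX promoters are known for a high density of CG dinucleotides, the sites of DNA methylation. Windows of 250 bases directly upstream of RefSeq gene starts (GRCh38.p14) were at hand for 20 of the 39 members, 26 distinct windows in all, because some genes have several starts and HOXC4 and HOXC5 share one. The CG dinucleotide, which reads the same on both strands, occurred in 96.2% of the HOX windows and in 93.9% of all 34943 distinct windows of that length. The median ratio of observed to expected CG was 0.89 in the HOX windows and 0.56 in all windows, and 76.9% of HOX windows were at or above 0.6, against 47.4% of all windows. Below are the windows of 4 members with large differences between groups or lines (HOXA13, HOXD13, HOXA3 at its outermost start, HOXA11) and of HOXB1, which was at or near 0 reads in several groups. Each runs 5′ to 3′ on the strand of the gene, in lower case with every CG in capitals.
HOXA13 (chr7:27200092-27200341, minus strand): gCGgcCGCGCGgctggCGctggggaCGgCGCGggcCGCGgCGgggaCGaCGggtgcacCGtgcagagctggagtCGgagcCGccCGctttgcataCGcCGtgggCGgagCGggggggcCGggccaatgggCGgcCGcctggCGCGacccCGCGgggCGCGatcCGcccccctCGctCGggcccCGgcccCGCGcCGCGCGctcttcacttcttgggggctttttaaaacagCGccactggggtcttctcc
HOXD13 (chr2:176092471-176092720, plus strand): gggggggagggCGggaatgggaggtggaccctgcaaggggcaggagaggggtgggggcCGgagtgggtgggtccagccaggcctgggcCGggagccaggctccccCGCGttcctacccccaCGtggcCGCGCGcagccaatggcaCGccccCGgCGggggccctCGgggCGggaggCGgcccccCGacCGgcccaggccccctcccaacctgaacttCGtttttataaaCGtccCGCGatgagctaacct
HOXA3 (chr7:27152584-27152833, minus strand): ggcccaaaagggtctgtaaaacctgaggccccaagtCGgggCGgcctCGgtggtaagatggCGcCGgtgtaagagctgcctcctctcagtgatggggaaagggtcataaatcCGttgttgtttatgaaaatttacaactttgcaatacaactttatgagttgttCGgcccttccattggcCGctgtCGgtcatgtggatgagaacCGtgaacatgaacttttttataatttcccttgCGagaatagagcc
HOXA11 (chr7:27185233-27185482, minus strand): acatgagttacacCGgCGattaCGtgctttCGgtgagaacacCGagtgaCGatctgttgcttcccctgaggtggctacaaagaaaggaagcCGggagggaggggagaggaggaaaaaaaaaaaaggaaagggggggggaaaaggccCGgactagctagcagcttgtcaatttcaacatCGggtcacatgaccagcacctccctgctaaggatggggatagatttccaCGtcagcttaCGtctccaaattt
HOXB1 (chr17:48531012-48531261, minus strand): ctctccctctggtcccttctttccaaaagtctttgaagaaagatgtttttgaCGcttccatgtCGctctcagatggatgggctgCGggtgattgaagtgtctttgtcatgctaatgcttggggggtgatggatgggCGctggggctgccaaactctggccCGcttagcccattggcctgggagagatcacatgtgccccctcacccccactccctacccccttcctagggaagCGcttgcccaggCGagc
The HOXA13 window holds 40 CG dinucleotides at an observed-to-expected ratio of 1.06 and the HOXD13 window holds 21 at 0.62. The HOXA3 and HOXA11 windows hold 11 each, at 0.75 and 0.68. The HOXB1 window holds 7 at 0.34. These counts describe the letters and say nothing of whether the sites were methylated in these cells.

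Library totals ran from 1660148 to 13280592 counted reads with a median of 3204310. The highest was H1944 naive library C, beside 2378903 in naive A and 2404464 in naive B. The HOXA5, HOXB4 and HOXB5 calls under TGF-β1 in H1944, described below, were lost without naive library C. Levels are given as CPM, the count of a gene scaled to the total of its library. As a measure of reads that do not come from expressed genes, 378 olfactory receptor genes, taken here as not expressed, were summed. Another 2 were left out because their mean reached 5 CPM or more in a group. The 378 gave 3.62 to 75.1 CPM in H1944 libraries and 5.99 to 310 CPM in A549 libraries. The highest were A549 TGF-β1 high library B (310 CPM) and A549 naive library A (201 CPM), and the results that move without them are given without them too. The epithelial markers EPCAM, KRT8, KRT18, KRT19 and CDH1 were present in both lines, at a summed 4870 to 5490 CPM in naive H1944 and 10300 to 10700 CPM in naive A549. The differentiated lung markers NKX2-1, SFTPB, SFTPC and NAPSA together reached at most 13.5 CPM in any library. Cells treated with TGF-β1 had a summed epithelial level of 1440 to 1670 CPM in H1944 and 2060 to 3160 CPM in A549; cells treated with GSK126 had 4880 to 7520 CPM in H1944 and 4670 to 6400 CPM in A549. The fibroblast markers PDGFRB, DCN, LUM and THY1 summed to 75.0 to 97.6 CPM in H1944 TGF-β1 libraries, against 0 to 2.56 CPM in naive H1944, while haematopoietic markers reached at most 23.3 CPM and endothelial markers at most 29.7 CPM in any library. Whether these changes in cell state or the background reads play a part in the HOX values was not tested, and in bulk RNA fewer expressing cells cannot be told apart from less RNA per cell.

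Both lines expressed a broad set of HOX genes, with HOXA, HOXB and HOXC on over most of their length. HOXD was the sparsest cluster. At 1 CPM or more stood 1 or 2 of its 9 members in each A549 group, and 2 to 5 of 9 in each H1944 group. A member is called expressed where its group mean was at least 1 CPM, well expressed at 10 CPM or more, trace below 1 CPM, and not detected at 0 reads in all libraries of the group. In all 10 groups 20 members were expressed, and HOXA9, HOXD3, HOXD4, HOXD9 and HOXD12 stayed below 1 CPM in all 10. Within H1944, 26 members were expressed in all 5 groups, 7 stayed below 1 CPM (HOXA4, HOXA9, HOXB1, HOXD3, HOXD4, HOXD9, HOXD12) and the other 6 (HOXB13, HOXC5, HOXC12, HOXD1, HOXD10, HOXD11) changed class. Within A549, 21 were expressed in all 5 groups, 8 stayed below 1 CPM (HOXA9, HOXD1, HOXD3, HOXD4, HOXD9, HOXD11, HOXD12, HOXD13) and 10 changed class (HOXA4, HOXA6, HOXA11, HOXB1, HOXB2, HOXB4, HOXC5, HOXC11, HOXC12, HOXD10). Without the background-rich TGF-β1 high library B, 19 were expressed in all 5 A549 groups, 10 stayed below 1 CPM and 10 changed class: HOXB1 and HOXD10 joined those below 1 CPM in all 5, and HOXA13 and HOXC13 joined those that changed class and so were not expressed in all 10 groups. These counts were the same with naive library A left out as well. Crossing 1 CPM is a description of levels near the limit and not a tested change.

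**Figure D1:**
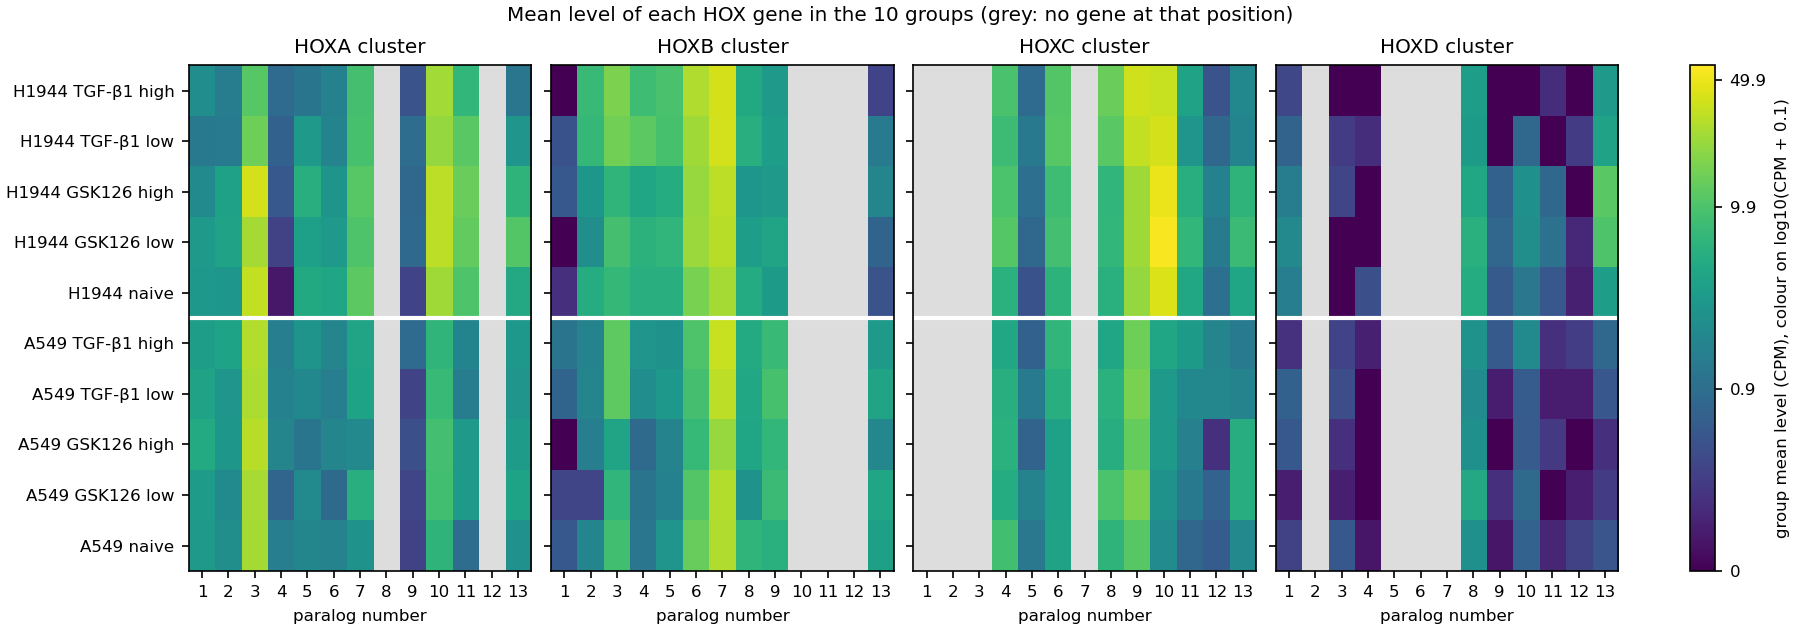
Mean level of the 39 HOX genes in each of the 10 groups (rows) against cluster and paralog number (columns), coloured by log10 of CPM + 0.1; grey squares have no gene. Dark is low and bright is high. HOXD is mostly dark in both lines apart from HOXD8 and, in H1944, HOXD13. The H1944 rows are brighter than the A549 rows at HOXA10, HOXA11 and HOXC10.

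The number of expressed members was 26 in H1944 TGF-β1 high, 28 in TGF-β1 low, 30 in GSK126 high, 30 in GSK126 low and 28 in naive cells. It was 30 in A549 TGF-β1 high, 29 in TGF-β1 low, 26 in GSK126 high, 25 in GSK126 low and 26 in naive cells. The A549 TGF-β1 high value was 22 without its background-rich library B. In that library HOXC10 stood at 10.2 CPM, HOXC11 at 7.54, HOXD10 at 5.54 and HOXC12 at 4.43, against at most 1.47, 0.999, 0.333 and 0.838 CPM in the other libraries of the group. Well expressed members numbered 9, 11, 9, 11 and 8 in the 5 H1944 groups in the same order, and 5, 4, 3, 4 and 4 in the A549 groups.

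Members with 0 reads were nearly all in HOXD. H1944 TGF-β1 high cells had none for HOXB1, HOXD3, HOXD4, HOXD9, HOXD10 and HOXD12, which allows up to 0.419 CPM each (3 reads over the group's total, counting error only). TGF-β1 low cells had none for HOXD9 and HOXD11 (up to 0.401 CPM), GSK126 high cells none for HOXD4 and HOXD12 (0.315 CPM), GSK126 low cells none for HOXB1, HOXD3 and HOXD4 (0.282 CPM) and naive H1944 cells none for HOXD3 (0.166 CPM). In A549, TGF-β1 low cells had none for HOXD4 (up to 0.213 CPM), GSK126 high cells none for HOXB1, HOXD4, HOXD9 and HOXD12 (0.49 CPM) and GSK126 low cells none for HOXD4 and HOXD11 (0.329 CPM). A549 TGF-β1 high and naive cells had at least 1 read for every member, but these groups also hold the 2 background-rich libraries, and 4 members in each were at or below the olfactory receptor level per kilobase.

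Ranked by the mean over the 5 group means of a line, the member with the highest level differed between the lines except in HOXB. The rank depends on the groups averaged: in naive H1944 HOXA3 (32.9 CPM) was above HOXA10 (24.1) and HOXD8 (5.09) above HOXD13 (3.49), and in naive A549 HOXA3 and HOXD8 were also first in their clusters. HOXB7, a gene of the trunk region that many carcinomas express, had the highest level of its cluster in both. Its H1944 levels were 47.1, 32.5 and 38.9 CPM in TGF-β1 high, 37.0, 47.6 and 31.0 in TGF-β1 low, 37.1, 28.3 and 30.3 in GSK126 high, 33.5, 26.7 and 29.6 in GSK126 low and 28.2, 22.0 and 25.1 CPM in naive libraries. In A549 HOXB7 had 42.6, 32.8 and 29.1 CPM in TGF-β1 high, 32.3 and 30.6 in TGF-β1 low, 18.7 and 26.2 in GSK126 high, 29.9, 24.3 and 32.0 in GSK126 low and 22.9, 30.2 and 31.3 CPM in naive libraries. The lines overlap in every group except GSK126 high.

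By that mean the top HOXA member in H1944 was HOXA10, a gene of the limb and uterus in development, with 25.8, 27.1 and 20.4 CPM in TGF-β1 high, 20.5, 19.3 and 24.7 in TGF-β1 low, 30.5, 30.1 and 33.2 in GSK126 high, 27.8, 34.4 and 32.5 in GSK126 low and 23.5, 25.8 and 23.1 CPM in naive libraries. The top HOXC member was HOXC10, a gene of the lumbar spinal cord and hindlimb region, with 33.1, 31.6 and 39.7 CPM in TGF-β1 high, 43.1, 38.6 and 36.4 in TGF-β1 low, 51.2, 41.8 and 55.8 in GSK126 high, 59.7, 49.5 and 58.1 in GSK126 low and 38.7, 42.4 and 46.3 CPM in naive libraries. For both genes every GSK126 library but 1 for HOXC10 lay above the naive libraries, and the fitted difference from naive cells did not pass the test described below. The top HOXD member by that mean was HOXD13, through its levels in the GSK126 groups, and its values stand with the GSK126 results.

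In A549 the top HOXA member was HOXA3, which in the mouse is needed for the thymus and parathyroid glands. It had 31.0, 31.5 and 23.1 CPM in TGF-β1 high, 30.0 and 25.0 in TGF-β1 low, 26.3 and 33.6 in GSK126 high, 22.0, 26.3 and 28.5 in GSK126 low and 24.2, 24.7 and 26.1 CPM in naive libraries. The top HOXC member was HOXC9, a gene of the thoracic region in the mouse, with 15.6, 17.1 and 10.7 CPM in TGF-β1 high, 15.5 and 17.3 in TGF-β1 low, 11.5 and 14.5 in GSK126 high, 14.2, 16.4 and 19.9 in GSK126 low and 8.99, 13.6 and 11.7 CPM in naive libraries. The top HOXD member was HOXD8, with 2.66, 2.22 and 2.83 CPM in TGF-β1 high, 2.34 and 1.87 in TGF-β1 low, 0.764 and 3.99 in GSK126 high, 4.39, 3.97 and 5.61 in GSK126 low and 2.17, 1.88 and 3.05 CPM in naive libraries. With the gates of a treatment pooled, treated libraries overlapped naive ones for all of these genes.

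Levels of different genes were compared per kilobase of exon. In naive H1944 the highest were HOXC10 (18.2 CPM per kb), HOXB7 (16.4), HOXC9 (12.8), HOXA3 (7.65) and HOXA10 (6.51). In naive A549 they were HOXB7 (18.4 CPM per kb), HOXC9 (6.81), HOXA3 (5.81), HOXB6 (5.15) and HOXC8 (3.35). The counting strand setting is not given in the sources used here, so reads of a gene and an antisense or overlapping transcript cannot be told apart. Transcripts on the opposite strand cover 62.5% of the HOXA7 exons, 58.1% of HOXD1, 39.3% of HOXA6, 31.1% of HOXA11, 16.4% of HOXA10 and 15.4% of HOXA3. Genes annotated on the same strand share 80.5% of the HOXD4 exons, 62.2% of HOXD3, 59.9% of HOXC5 and 31.0% of HOXA4, so the low values of these members are uncertain too.

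TGF-β1 gave the largest number of HOX changes against naive cells, in H1944, and they ran in opposite directions in different clusters. HOXA genes were lower (HOXA3, HOXA5, HOXA6 and HOXA13) and HOXB genes from HOXB3 to HOXB7 were higher. In HOXC, HOXC6, HOXC8 and HOXC9 were higher while HOXC13 was lower. By edgeR's quasi-likelihood test with Benjamini-Hochberg adjustment over all genes, 13 of the 25 tested members passed an adjusted p of 0.05, which is 52% of them, 8 higher and 5 lower. Over all 13621 genes tested 63.7% passed, so the share among HOX genes is no higher than the background; 32.1% of all genes passed as higher and 31.6% as lower. By cluster, 4 of 8 tested HOXA members were lower and 0 higher, 5 of 8 HOXB members were higher and 0 lower, 3 of 7 HOXC members were higher and 1 lower, and 0 of 2 HOXD members passed. The naive cells were not sorted, and no day is given for them. Treatment, sorting and time in culture thus cannot be told apart in any comparison with them. The same naive libraries serve both treatments.

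**Figure D2:**
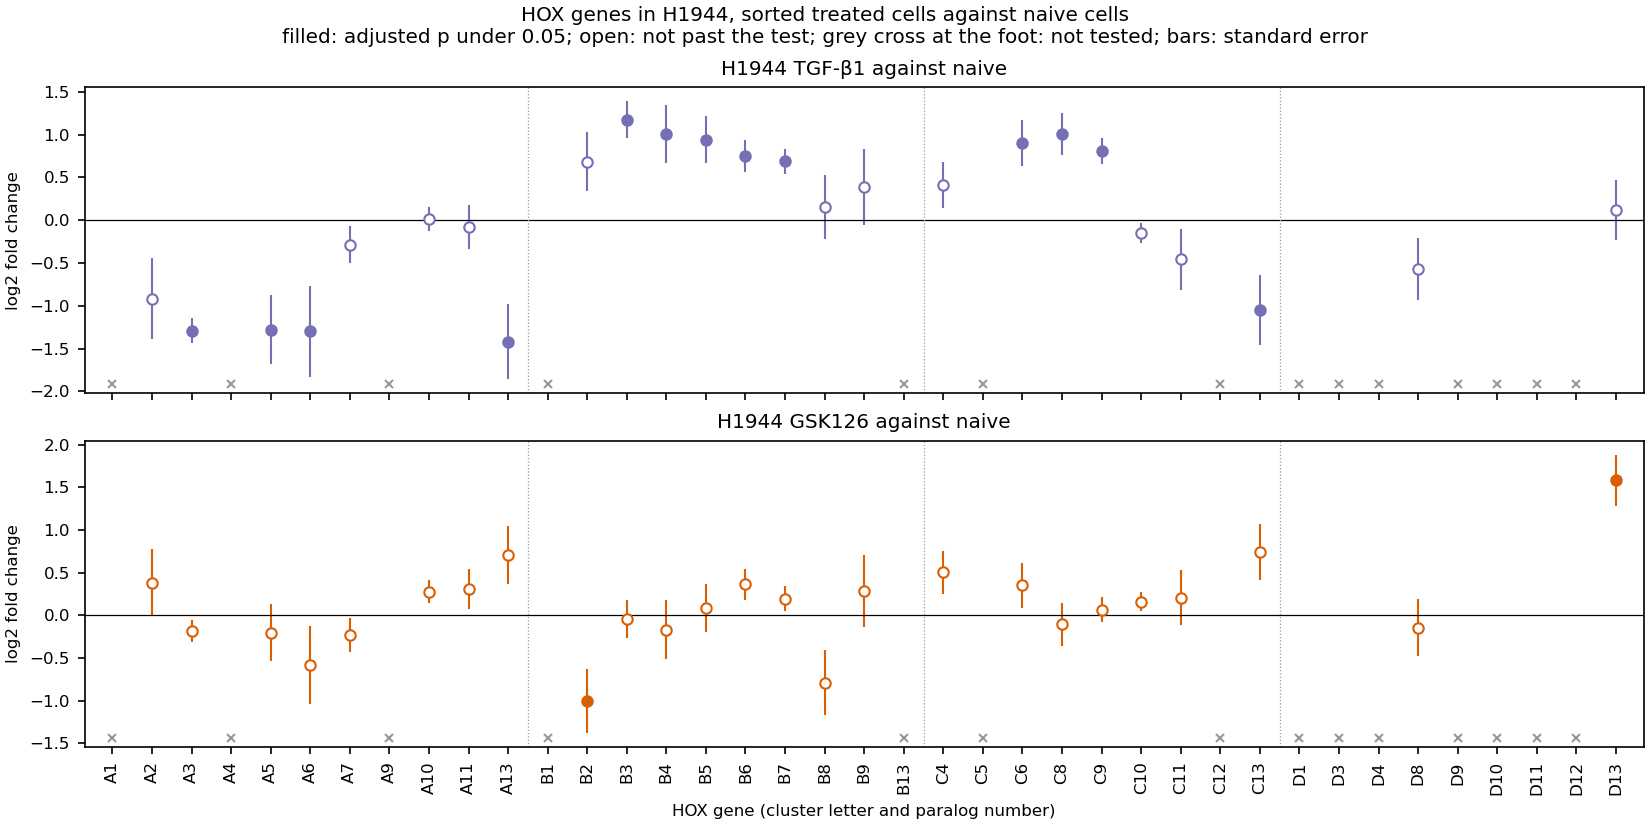
log2 fold change ± standard error of each HOX gene in H1944 sorted cells against naive cells, for TGF-β1 (above) and GSK126 (below), ordered by cluster and paralog number; filled circles passed the test and grey crosses were not tested. Under TGF-β1 the HOXA points lie below 0 except HOXA10 at 0.01, the HOXB points lie above 0, and under GSK126 HOXB2 and HOXD13 are filled.

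Among the lower genes, HOXA3 had 8.74 CPM in the lowest, 13 at the median and 16.5 in the highest of the 6 TGF-β1 libraries, against 36.6, 29.5 and 32.7 CPM in the naive libraries. The groups are far apart. The log2 fold change was -1.29 ± 0.15 (standard error; adjusted p = 3.53e-09), the smallest p of any member in this comparison. HOXA3 is overlapped on the opposite strand by the noncoding RNA HOXA-AS2, which itself fell (below). HOXA5, needed for normal lung development in the mouse, had 0.453 CPM in the lowest, 2.26 at the median and 3.92 in the highest TGF-β1 library. Naive libraries had 5.04, 4.16 and 4.97 CPM. All TGF-β1 libraries were below all naive ones, with a log2 fold change of -1.28 ± 0.40 (adjusted p = 0.00579), and the call was lost without naive library C. With the low gate alone the HOXA5 fold was -0.565 (adjusted p = 0.276), and with the high gate alone -1.99 (adjusted p = 0.00193). HOXA6 had 0.916, 1.41 and 2.41 CPM at the lowest, median and highest TGF-β1 library, against 4.62, 4.99 and 3.16 CPM in naive libraries. These did not overlap either, at -1.30 ± 0.53 (adjusted p = 0.0317), but the call was lost on leaving out any of 6 single libraries. These were TGF-β1 low A or C, TGF-β1 high B or C, and naive A or B. The HOXA6 call was also lost with either gate alone and with all 28 libraries in 1 fit (adjusted p = 0.0697).

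The other 2 lower genes carry number 13, the 5′ end of their clusters. HOXA13, which shapes the digits and the urogenital tract and is mutated in hand-foot-genital syndrome, had 0.833 CPM in the lowest, 1.27 at the median and 5.42 in the highest TGF-β1 library, against 5.89, 3.74 and 4.44 CPM in naive libraries. The groups overlap through 1 library, TGF-β1 low B, whose olfactory receptor sum was 62.6 CPM. The log2 fold change was -1.42 ± 0.44 (adjusted p = 0.00538). With the low gate alone it was -0.91 (adjusted p = 0.12) and did not pass, and with the high gate alone -1.93 (adjusted p = 0.00517). HOXC13, a regulator of hair and nail keratins, had 0.906, 1.60 and 3.14 CPM at the lowest, median and highest TGF-β1 library, against 4.62, 4.99 and 3.09 CPM in naive libraries. The highest TGF-β1 library just exceeded the lowest naive one; the log2 fold change was -1.05 ± 0.41 (adjusted p = 0.0244), and it was no longer past the test without TGF-β1 high A, naive A or naive B, or with the high gate alone (-0.91, adjusted p = 0.112). The paralog HOXD13 did not share this, at a log2 fold change of 0.12 ± 0.35 (adjusted p = 0.786).

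Among the higher genes, HOXB3, a gene of the hindbrain and pharyngeal region, had 12.5 CPM in the lowest, 16.4 at the median and 18.7 in the highest TGF-β1 library, against 7.15, 5.82 and 8.06 CPM in naive libraries. The groups did not overlap, with a log2 fold change of 1.17 ± 0.22 (adjusted p = 1.98e-05). HOXC8, which in the mouse sets the identity of motor neurons at forelimb level, had 10.2, 12.3 and 15.9 CPM at the lowest, median and highest TGF-β1 library, against 4.62, 4.16 and 8.43 CPM in naive libraries. Again every TGF-β1 library was above every naive one, at 1.01 ± 0.25 (adjusted p = 0.000734). HOXB4, known for expanding blood stem cells when supplied in excess, had 4.98, 10.2 and 13.7 CPM at the lowest, median and highest TGF-β1 library, against 9.25, 3.33 and 4.22 CPM in naive libraries. Naive library A lay inside the TGF-β1 range. The log2 fold change was 1.01 ± 0.34 (adjusted p = 0.00948), and the call was lost without naive library B or C and with the high gate alone (0.745, adjusted p = 0.106). The other higher members were HOXB5 (log2 fold change 0.94), HOXC6 (0.90), HOXC9 (0.81), HOXB6 (0.75) and HOXB7 (0.69). The HOXB5 call was lost without naive library C. With all 28 libraries in 1 fit the calls of HOXB4 (adjusted p = 0.152), HOXB5 (0.0826) and HOXC6 (0.0719) were lost.

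Between these groups 12 tested members did not pass. HOXA10 was at a log2 fold change of 0.01 ± 0.14, HOXA11 at -0.08 ± 0.26 and HOXC10 at -0.15 ± 0.12. HOXA2 lay near the threshold at -0.92 ± 0.47 (adjusted p = 0.0881). The other 14 members had too few reads to be tested in H1944. Summed over clusters, HOXA had 64.3 ± 6.41 CPM in TGF-β1 libraries (SD, n = 6) and 98.7 ± 5.59 CPM in naive libraries (SD, n = 3), and HOXB had 117 ± 10.3 CPM and 73.5 ± 12.1 CPM. HOXC had 112 ± 7.86 CPM in TGF-β1 libraries and 92 ± 6.88 CPM in naive libraries, and HOXD 7.97 ± 1.58 CPM and 12.6 ± 0.336 CPM. These sums are a description with no test.

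GSK126 changed few HOX genes in H1944. HOXD13, at the 5′ end of HOXD, was higher and HOXB2 was lower. These 2 are 8% of the 25 tested members, against 40.2% of all genes that passed the test in this comparison. HOXD13, which patterns the digits and is mutated in synpolydactyly, had 6.90 CPM in the lowest, 11.1 at the median and 13 in the highest of the 6 GSK126 libraries, against 3.78, 3.74 and 2.94 CPM in naive libraries. Every GSK126 library exceeded every naive one. The log2 fold change was 1.58 ± 0.30 (adjusted p = 5.76e-05), and it passed in either gate alone and on leaving out any single library, but not with all 28 libraries in 1 fit (1.48 ± 0.55, adjusted p = 0.0571). HOXB2, a hindbrain gene, had 0.99 CPM in the lowest, 2.87 at the median and 3.30 in the highest GSK126 library, against 7.99, 3.74 and 3.61 CPM in naive libraries. The ranges lie close to each other without touching. The log2 fold change was -1.003 ± 0.37 (adjusted p = 0.031), and the call was lost without GSK126 low B, GSK126 high B or naive A, and with the high gate alone (-0.79, adjusted p = 0.157).

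The paralogs of HOXD13 pointed the same way without passing when both gates were pooled. With the low gate alone HOXA13 did pass, at a mean of 10.8 CPM against 4.69 CPM in naive libraries. HOXA13 had a mean of 8.58 ± 3.74 CPM in GSK126 libraries (SD, n = 6) and 4.69 ± 1.09 CPM in naive libraries (SD, n = 3), a log2 fold change of 0.71 ± 0.34 (adjusted p = 0.0951). HOXC13 had 7.05 ± 1.42 CPM in GSK126 libraries and 4.23 ± 1.01 CPM in naive libraries, at 0.74 ± 0.33 (adjusted p = 0.0739). HOXB13 had too few reads to test. HOXA3 also passed with the low gate alone, at a mean of 25.2 CPM against 32.9 CPM in naive libraries. Its mean in the high gate was 39.4 CPM. Before adjustment 6 members had a p under 0.05. Under scaling by the deposited totals alone, where the median of all genes was 0.12 in place of 0, the members past the test were 5, all higher (HOXA10, HOXB6, HOXC10, HOXC13 and HOXD13), and HOXB2 was not among them. The median log2 fold change of the 25 tested members was 0.16, beside 0 over all genes. HOXD3, HOXD4, HOXD9 and HOXD12 stayed below 1 CPM in both GSK126 gates. The cluster sum of HOXD was 21.6 ± 3.95 CPM in GSK126 libraries and 12.6 ± 0.336 CPM in naive libraries.

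In A549 no HOX gene passed edgeR's test against naive cells under either treatment, and DESeq2 also called 0 in both comparisons. For TGF-β1, 0 of 26 tested members passed, against 19% of all 19842 genes, and 2 members, HOXB6 and HOXC4, had an unadjusted p under 0.05. HOXC4 came nearest, with 2.33, 6.21 and 4.71 CPM in TGF-β1 high and 6.25 and 4.84 CPM in TGF-β1 low libraries, against 7.10, 9.40 and 9 CPM in naive libraries. All naive libraries were above all TGF-β1 libraries, at a log2 fold change of -0.98 ± 0.35 (adjusted p = 0.0578), and the gene passed on leaving out the background-rich TGF-β1 high library B and when all 28 libraries were fitted together. For GSK126, 0 of 26 passed, against 6.77% of all genes, and HOXA11, HOXB3, HOXB8 and HOXC13 had an unadjusted p under 0.05. HOXA11 and HOXC13 did pass when all 28 libraries were fitted together. The median log2 fold change of the tested members was 0.04 under TGF-β1, beside 0.05 over all genes, and 0.08 under GSK126, beside -0.16 over all genes. The spread between libraries was wider in A549, with a biological coefficient of variation of 0.0978 in H1944 and 0.358 in A549, and a p that misses the threshold does not show that a gene kept its level. HOXD13 stayed near the floor in A549, at 0, 2 and 0.314 CPM in TGF-β1 high, 0.781 and 0.156 in TGF-β1 low, 0 and 0.285 in GSK126 high, 0.209, 0 and 0.432 in GSK126 low and 0.870, 0.289 and 0.152 CPM in naive libraries.

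The treatments can be compared directly without the naive cells, since both arms were treated for the same time and sorted. In H1944 the arms differed at most of the tested HOX genes, as they did at most of all genes tested. HOXA genes and all 3 tested genes of number 13 were lower under TGF-β1 than under GSK126, and HOXB genes were higher. Of 25 tested members 18 passed, 10 higher and 8 lower, which is 72%, near the background of 63.8% of all genes. Over all genes 31.6% passed as higher and 32.1% as lower. In HOXA 5 of 8 were lower (HOXA2, HOXA3, HOXA5, HOXA10, HOXA13), in HOXB 7 of 8 were higher (HOXB2 to HOXB8), in HOXC 3 of 7 were higher (HOXC6, HOXC8, HOXC9) and 2 lower (HOXC10, HOXC13), and in HOXD 1 of 2 was lower (HOXD13). Under scaling by the deposited totals alone, added after the data were seen, the median of all genes was -0.20 in place of -0.01 on the log2 scale and the split was 7 higher and 10 lower; no direction turned, HOXB6, HOXB8 and HOXC6 lost their calls, and HOXA11 and HOXC11 passed as lower.

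**Figure D3:**
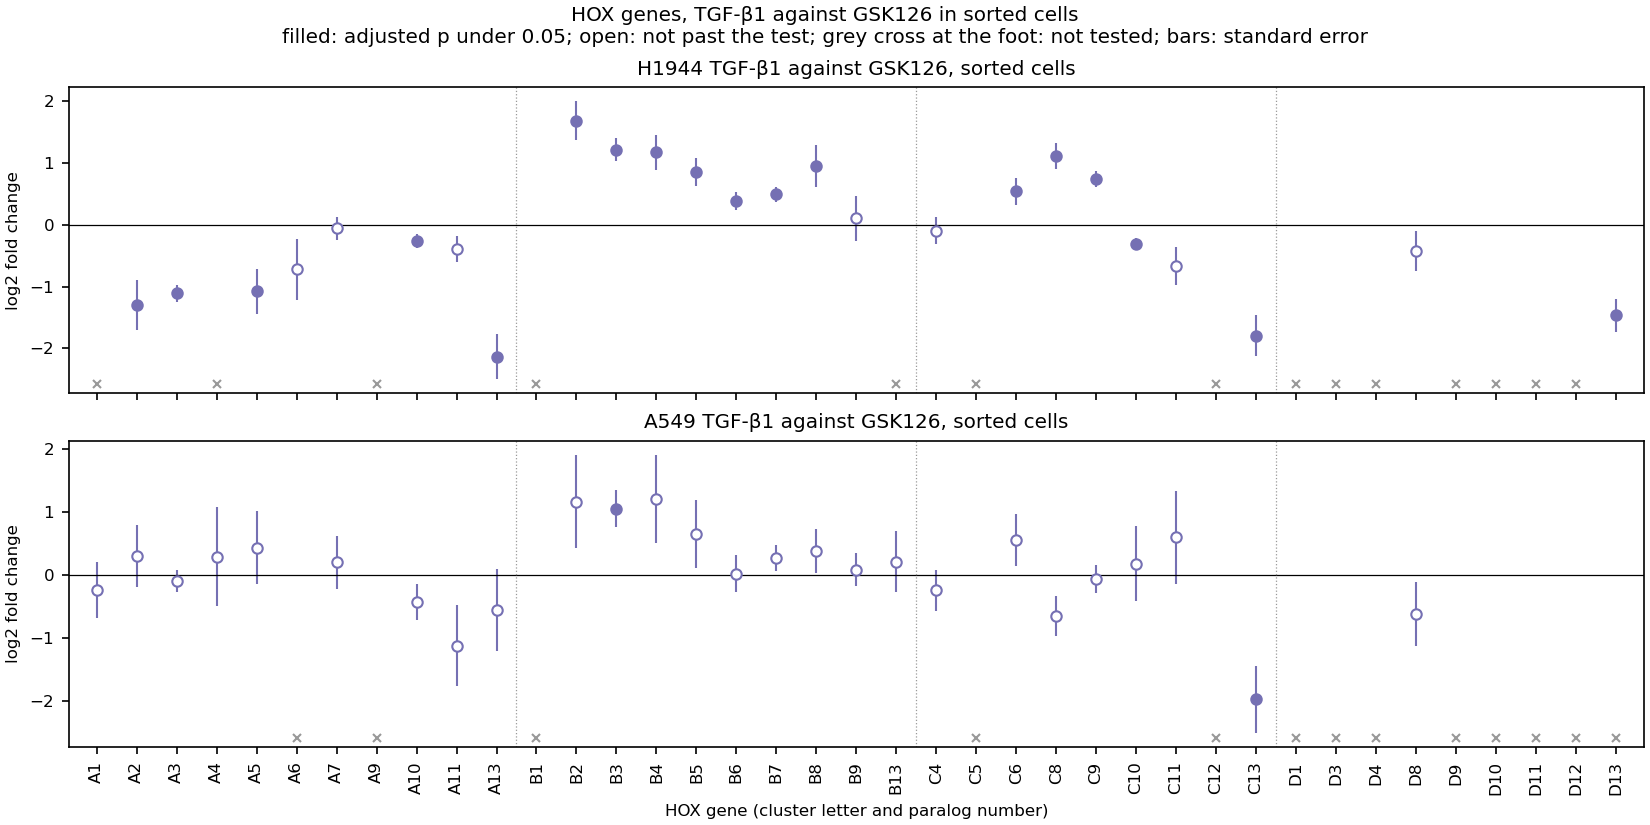
log2 fold change ± standard error of each HOX gene between TGF-β1 and GSK126 sorted cells in H1944 (above) and A549 (below), ordered by cluster and paralog number; filled circles passed the test and grey crosses were not tested. In H1944 every tested HOXB gene but 1 is filled above 0 and the genes of number 13 are filled below 0, and in A549 HOXB3 and HOXC13 are filled.

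HOXA13 had 0.833 CPM in the lowest, 1.27 at the median and 5.42 in the highest TGF-β1 library, against 2.76, 8.96 and 13.9 CPM at the lowest, median and highest GSK126 library. The ranges overlap, again through TGF-β1 low B, and the log2 fold change was -2.13 ± 0.37 (adjusted p = 6.99e-06). HOXC13 had 0.906, 1.60 and 3.14 CPM at the lowest, median and highest TGF-β1 library, against 4.33, 7.56 and 8.05 CPM in GSK126 libraries. There was no overlap, at -1.79 ± 0.33 (adjusted p = 1.99e-05). HOXD13 had 1.36, 3.56 and 4.82 CPM at the lowest, median and highest TGF-β1 library, against 6.90, 11.1 and 13 CPM in GSK126 libraries. It was also separated, at -1.47 ± 0.26 (adjusted p = 1.15e-05). HOXA2, which patterns the second pharyngeal arch and the ear, had 0.784, 1.23 and 1.83 CPM at the lowest, median and highest TGF-β1 library, against 2.41, 3.60 and 5.18 CPM in GSK126 libraries. Every TGF-β1 library was lower, at -1.30 ± 0.40 (adjusted p = 0.00543).

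HOXB2 had 5.42 CPM in the lowest, 6.50 at the median and 9.16 in the highest TGF-β1 library, against 0.99, 2.87 and 3.30 CPM in GSK126 libraries. The arms were separated, at a log2 fold change of 1.69 ± 0.32 (adjusted p = 2.13e-05). HOXB3 had 12.5, 16.4 and 18.7 CPM at the lowest, median and highest TGF-β1 library, against 4.49, 7.92 and 10.5 CPM in GSK126 libraries. It did not overlap, at 1.22 ± 0.18 (adjusted p = 6.79e-07). HOXC8 had 10.2, 12.3 and 15.9 CPM at the lowest, median and highest TGF-β1 library, against 5.18, 5.77 and 9.15 CPM in GSK126 libraries. It did not overlap either, at 1.11 ± 0.22 (adjusted p = 3.36e-05). HOXB4 had 4.98, 10.2 and 13.7 CPM at the lowest, median and highest TGF-β1 library, against 2.88, 4.76 and 9.89 CPM in GSK126 libraries. Here the ranges overlap, at 1.18 ± 0.28 (adjusted p = 0.000543). Of the smaller differences, HOXA3 was at -1.11, HOXA5 at -1.08, HOXB8 at 0.95, HOXB5 at 0.85, HOXC9 at 0.74, HOXC6 at 0.55, HOXB7 at 0.49, HOXB6 at 0.39, HOXC10 at -0.31 and HOXA10 at -0.27. The calls of HOXB6, HOXB8, HOXC6 and HOXA10 were each lost on leaving out certain single libraries, 5 for HOXB6, 3 for HOXB8, 6 for HOXC6 and 7 for HOXA10.

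In A549 the same comparison called 2 of 26 tested members, 7.69% against 19.3% of all genes. HOXB3 had 9.99, 17.3 and 8.90 CPM in TGF-β1 high and 13.2 and 11.4 CPM in TGF-β1 low libraries, against 2.29 and 5.99 CPM in GSK126 high and 7.32, 7.45 and 5.18 CPM in GSK126 low libraries. Every TGF-β1 library was higher, at a log2 fold change of 1.06 ± 0.29 (adjusted p = 0.0142). HOXC13 had 0.666, 2.44 and 0.733 CPM in TGF-β1 high and 2.08 and 1.25 CPM in TGF-β1 low libraries, against 4.2 and 6.27 CPM in GSK126 high and 6.06, 4.47 and 5.18 CPM in GSK126 low libraries. Every TGF-β1 library was lower, at -1.98 ± 0.53 (adjusted p = 0.0125). Both calls were lost without TGF-β1 low library A; HOXB3 was also lost without GSK126 high A, and HOXC13 without GSK126 high B or TGF-β1 low C. Neither depended on the background-rich libraries. HOXB3 and HOXC13 passed in H1944 with the same signs.

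**Figure D4:**
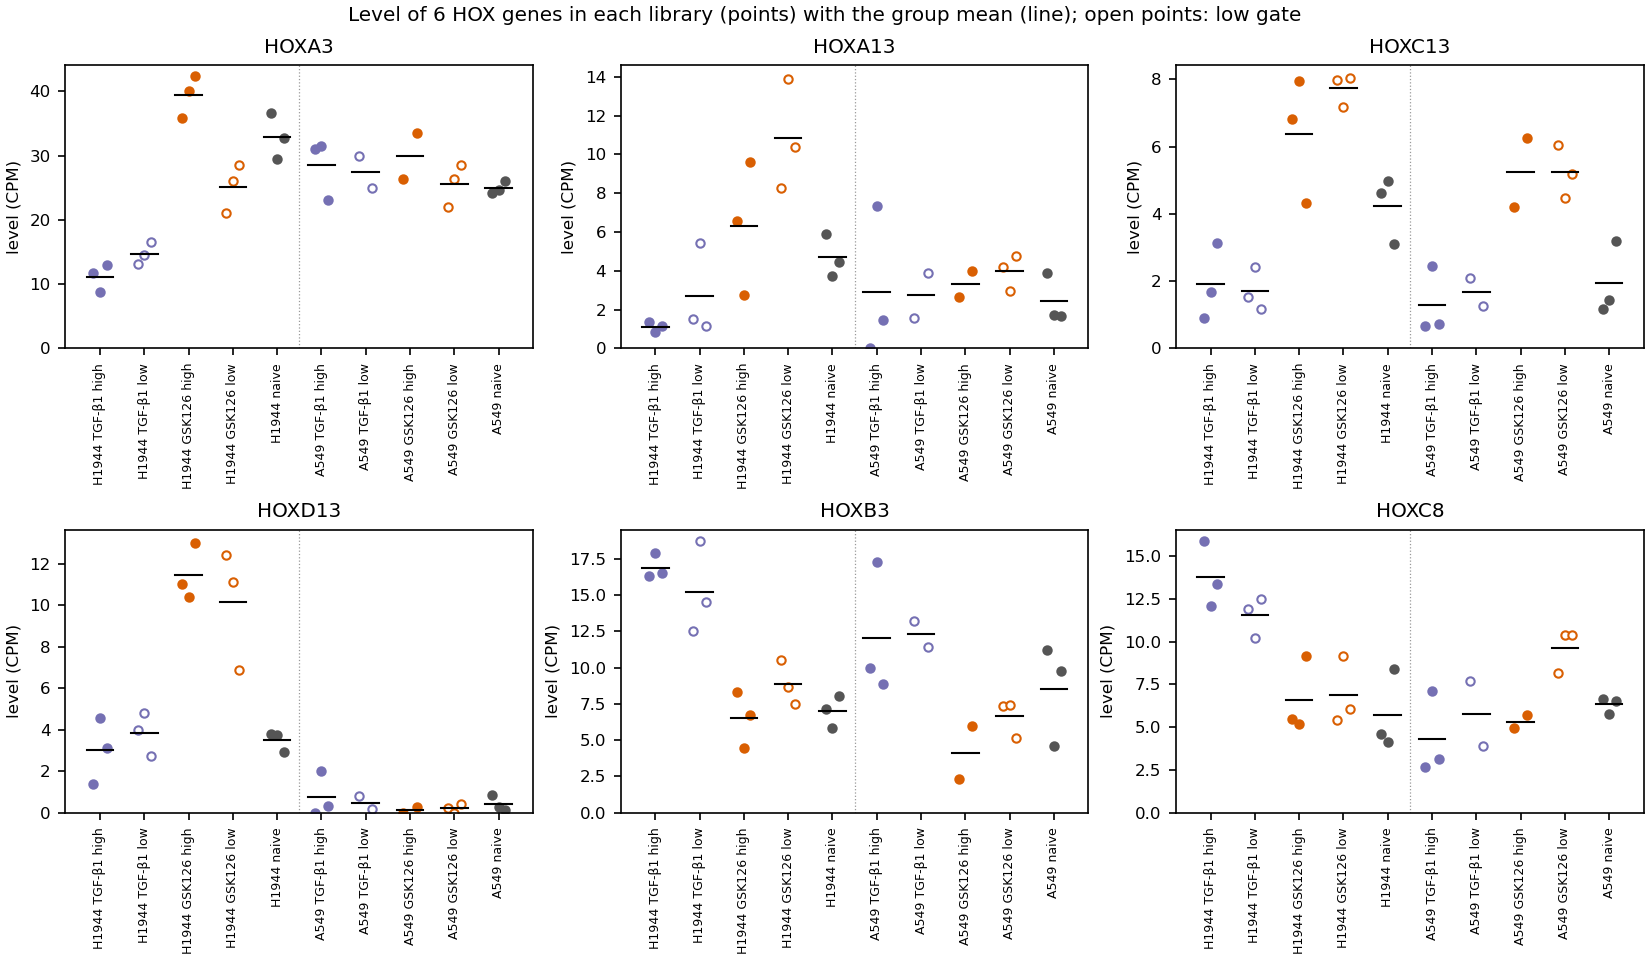
Level in CPM of HOXA3, HOXA13, HOXC13, HOXD13, HOXB3 and HOXC8 in each library of the 10 groups, with open points for the low gate and a line at each mean. HOXD13 in H1944 GSK126 cells, at 6.90 to 13 CPM, lies above every other group shown for that gene, and the H1944 TGF-β1 points for HOXA3, at 8.74 to 16.5 CPM, lie below every other group shown.

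Between the mVenus gates of one treatment few HOX genes passed the test. Under GSK126 in H1944, 1 of 25 tested members passed, HOXA3, which is 4% against 6.93% of all genes. HOXA3 had 35.8, 40.1 and 42.4 CPM in GSK126 high libraries, against 21.1, 26.0 and 28.5 CPM in GSK126 low libraries. The gates did not overlap, at a log2 fold change of 0.64 ± 0.16 (adjusted p = 0.0101), and naive libraries had 36.6, 29.5 and 32.7 CPM. The call was lost without GSK126 low A or low B. Under TGF-β1 in H1944, 0 of 25 passed, against 0.0587% of all genes, and HOXA5 and HOXA11 had an unadjusted p under 0.05. HOXA5 averaged 1.11 ± 0.86 CPM in TGF-β1 high and 3.12 ± 0.746 CPM in TGF-β1 low libraries (SD, n = 3 each), which did not overlap, at a log2 fold change of -1.42 ± 0.61 (adjusted p = 0.914). HOXA11 averaged 6.77 ± 1.79 CPM in TGF-β1 high and 11.7 ± 3.45 CPM in TGF-β1 low libraries, also without overlap, at -0.73 ± 0.33 (adjusted p = 0.925). In A549, 0 of 26 members passed under TGF-β1 and 0 of 26 under GSK126, against 0% of all genes in both, and 0 members had an unadjusted p under 0.05 in either. DESeq2 called 0 members in each of the 3 gate comparisons in which edgeR called 0. These counts do not show that the gates are alike, and in A549, with 2 or 3 libraries a gate, no gene of the whole table passed. With all 28 libraries in 1 fit the HOXA3 call in H1944 was lost as well.

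Before any treatment H1944 had higher levels than A549 at members along the clusters, from HOXB2 and HOXA3 to HOXC11 and HOXD13. In 1 joint fit, 13 of 29 tested members passed, 44.8% against 46.8% of all genes; 12 were higher in H1944 and HOXB13 was lower. HOXC10 had 38.7, 42.4 and 46.3 CPM in naive H1944, against 2.32, 0.868 and 3.05 CPM in naive A549. The log2 fold change was 4.41 ± 0.37 (adjusted p = 3.15e-11), the largest of any member in this comparison. HOXA11, needed for the forearm and the uterus in the mouse, had 8.41, 13.7 and 8.43 CPM in naive H1944, against 1.16, 0.289 and 1.22 CPM in naive A549, at 3.52 ± 0.46 (adjusted p = 1.78e-07). HOXD13 had 3.78, 3.74 and 2.94 CPM in naive H1944, against 0.870, 0.289 and 0.152 CPM in naive A549, at 2.96 ± 0.71 (adjusted p = 0.00108). HOXC11, a gene of the hindlimb level, had 2.52, 5.82 and 5.12 CPM in naive H1944, against 1.30, 0.289 and 0.610 CPM in naive A549, at 2.67 ± 0.66 (adjusted p = 0.00148). The lines were separated for all 4. The other higher members were HOXA7 (2.29), HOXB4 (2.29), HOXA10 (1.97), HOXB2 (1.55), HOXA5 (1.46), HOXB5 (1.02), HOXC9 (0.92) and HOXA3 (0.43), all as log2 fold changes.

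**Figure D5:**
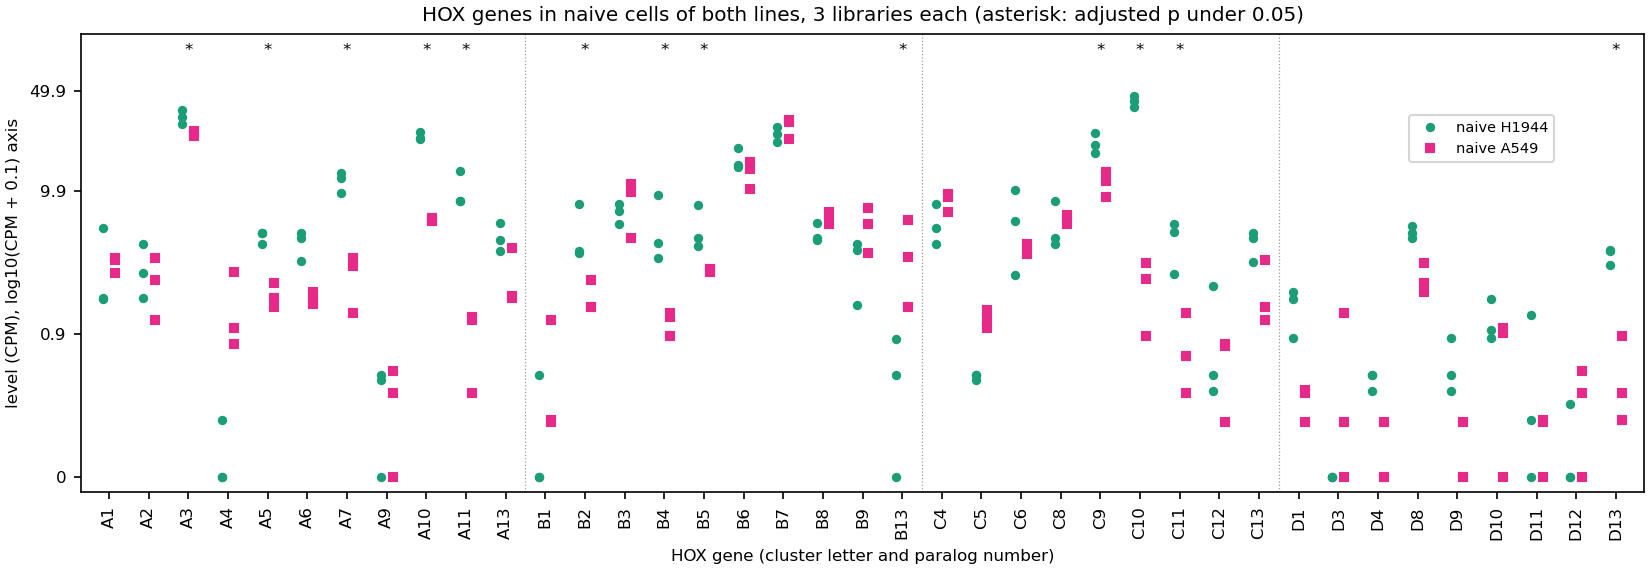
Level of each HOX gene in naive H1944 libraries (circles) and naive A549 libraries (squares), as log10 of CPM + 0.1, ordered by cluster and paralog number; an asterisk marks members past the test between the lines. HOXC10 is the widest gap, at 38.7 to 46.3 CPM in H1944 and 0.868 to 3.05 CPM in A549, and HOXB13 is the marked member that is lower in H1944.

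HOXB13, a prostate and tail-region gene, had 0.420, 0 and 0.828 CPM in naive H1944, against 6.23, 1.45 and 3.35 CPM in naive A549, at -2.62 ± 1.00 (adjusted p = 0.0322). The highest A549 value was in the background-rich naive library A, and without that library, or without H1944 naive A or B, the call was lost. HOXA3 and HOXB5 lost their calls between the lines in 20 and 18 of 34 alternatives, and those 2 are uncertain. HOXA5 and HOXB2 lost theirs without certain naive libraries: A549 B, A549 C or H1944 C for HOXA5, and A549 A, A549 B or H1944 A for HOXB2. Each line is 1 cell line, so the libraries repeat a line and not a kind of tumour.

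Whether a treatment acted differently in the lines was tested as the difference of their log2 fold changes against naive cells. For TGF-β1, 4 of 29 tested members passed, HOXA3, HOXB6, HOXC4 and HOXC8, against 20% of all genes. HOXA3 differed by -1.43 ± 0.23 (adjusted p = 1.76e-05): its log2 fold change was -1.29 ± 0.15 in H1944 and -0.02 ± 0.20 in A549, where all libraries lay between 22.0 and 33.6 CPM. HOXC8 differed by 1.47 ± 0.41 (adjusted p = 0.00889), beside log2 fold changes within the lines of 1.01 ± 0.25 in H1944 and -0.53 ± 0.34 in A549. In A549 HOXC8 had 2.66, 7.09 and 3.14 CPM in TGF-β1 high and 7.68 and 3.90 CPM in TGF-β1 low libraries, against 6.67, 5.78 and 6.56 CPM in naive libraries, and the groups overlap. HOXB6 differed by 1.23 ± 0.35 (adjusted p = 0.0114), beside 0.75 ± 0.18 in H1944 and -0.64 ± 0.30 in A549. HOXB6 had 36.2, 29.6 and 18.9 CPM in H1944 TGF-β1 high and 22.3, 23.5 and 25.5 CPM in TGF-β1 low libraries, against 19.8, 14.6 and 15.1 CPM in naive ones. In A549 HOXB6 had 8.99, 14.4 and 7.64 CPM in TGF-β1 high and 12.1 and 5.77 CPM in TGF-β1 low libraries, against 15.8, 10.3 and 14.2 CPM in naive ones. Both lines show overlap between treated and naive libraries for this gene.

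HOXC4, a gene of the neck region that also acts in B cells, differed between the lines under both treatments. The difference was 1.29 ± 0.41 for TGF-β1 (adjusted p = 0.0223) and 1.30 ± 0.41 for GSK126 (adjusted p = 0.0411), which was the only GSK126 call among 29 members, against 9.91% of all genes. In H1944 HOXC4 had 10.4, 9.16 and 9.03 CPM in TGF-β1 high, 4.28, 11.4 and 7.84 in TGF-β1 low, 7.03, 10.7 and 11.6 in GSK126 high and 13.1, 9.65 and 10.1 CPM in GSK126 low libraries, against 5.46, 4.16 and 8.06 CPM in naive ones. In A549 HOXC4 had 2.33, 6.21 and 4.71 CPM in TGF-β1 high, 6.25 and 4.84 in TGF-β1 low, 5.34 and 6.27 in GSK126 high and 3.97, 4.97 and 6.48 CPM in GSK126 low libraries, against 7.10, 9.40 and 9 CPM in naive ones. Treated A549 libraries all lay below the naive ones, and treated H1944 libraries mostly lay above theirs. Neither line passed alone, and the GSK126 difference was lost on leaving out any of 11 single libraries; the TGF-β1 difference was lost without A549 naive B or C or H1944 naive A or B. HOXD13 under GSK126 differed by 2.63 ± 1.08 without passing (adjusted p = 0.132), so its rise is not shown to be particular to H1944.

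HOX proteins bind DNA together with TALE homeodomain cofactors of the PBX and MEIS families. The counts for this list and those after it stand against the shares of all genes past the test, which were 63.7% under TGF-β1 and 40.2% under GSK126 in H1944, and 19% under TGF-β1 and 6.77% under GSK126 in A549, in both directions together. Of 9 listed cofactors 7 were tested in H1944, and 4 were higher and 0 lower under TGF-β1 against naive cells. MEIS1 had 30.8 ± 4.38 CPM in TGF-β1 libraries (SD, n = 6) and 12 ± 2.08 CPM in naive libraries (SD, n = 3), a log2 fold change of 1.495 ± 0.18 (adjusted p = 5.7e-09). PBX3 was at 1.38 ± 0.21 (adjusted p = 6.72e-07). Under GSK126 in H1944 2 were higher, MEIS3 (0.999 ± 0.16, adjusted p = 2.98e-06) and PBX3 (0.76 ± 0.21, adjusted p = 0.00365), and 1 was lower. In A549 9 were tested: under TGF-β1 2 were higher, PBX3 (1.03 ± 0.19, adjusted p = 0.000654) and MEIS3 (1.09 ± 0.26, adjusted p = 0.00589), and 1 was lower, and under GSK126 0 passed. The median of the tested cofactors was 0.41 and 0.11 in H1944 under TGF-β1 and GSK126 and 0.22 and -0.03 in A549, beside medians over all genes of -0.01, 0, 0.05 and -0.16.

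Of 19 listed long noncoding RNAs of the clusters, 5 could be tested in H1944 and 9 in A549. Under TGF-β1 in H1944 2 fell and 0 rose. HOXA-AS2, transcribed against HOXA3, had 2.25 ± 1.16 CPM in TGF-β1 libraries (SD, n = 6) and 9.41 ± 1.67 CPM in naive libraries (SD, n = 3), a log2 fold change of -1.96 ± 0.36 (adjusted p = 1.36e-05). HAGLR, transcribed against HOXD1, had 7.46 ± 2.01 CPM in TGF-β1 libraries and 20.6 ± 4.72 CPM in naive libraries, at -1.34 ± 0.23 (adjusted p = 4.21e-06). Under GSK126 in H1944, and under either treatment in A549, 0 passed. Of 16 genes that flank the clusters and were found in the table, 11 were tested in H1944, with 2 higher and 6 lower under TGF-β1 and 1 higher and 4 lower under GSK126; ATP5MC1, beside HOXB, was at -2.21 ± 0.13 and -1.19 ± 0.12. In A549 13 were tested, with 1 higher and 3 lower under TGF-β1 (ATP5MC1 at -1.53 ± 0.21, CALCOCO1 at 1.33 ± 0.25) and 0 under GSK126. ATP5MC1 was among the 6 lower flanking genes under TGF-β1 in H1944, where HOXB3 to HOXB7 were higher. A link between them was not tested.

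Of 14 genes of Polycomb repressive complex 2 and the H3K27 demethylases, 2 were higher and 3 lower under TGF-β1 in H1944, 2 higher and 2 lower under TGF-β1 in A549, 4 higher and 4 lower under GSK126 in H1944, and 1 higher and 0 lower under GSK126 in A549. That is 5 and 8 of 14 in H1944 under TGF-β1 and GSK126, beside 63.7% and 40.2% of all genes, and 4 and 1 of 14 in A549, beside 19% and 6.77%. JARID2, which recruits the complex, was higher in all 4 comparisons, at 2.40 ± 0.11 and 0.81 ± 0.11 in H1944 under TGF-β1 and GSK126 and 2.37 ± 0.22 and 0.96 ± 0.22 in A549. KDM6B, an H3K27 demethylase, was at 2.24 ± 0.13 under TGF-β1 in H1944 and 3.08 ± 0.34 in A549. EZH2, the target of GSK126, was at -0.20 ± 0.10 (adjusted p = 0.0811) under TGF-β1 and 0.27 ± 0.09 (adjusted p = 0.0209) under GSK126 in H1944, and at -0.83 ± 0.21 (adjusted p = 0.00827) and 0.19 ± 0.22 (adjusted p = 0.71) in A549. An inhibitor of the enzyme need not alter its RNA, so this is no check of the treatment.

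A list of 14 genes covered MLL complexes and related factors such as DOT1L, which is not an MLL subunit. Under TGF-β1 in H1944 2 were higher and 6 lower (DOT1L at -1.18 ± 0.09, MEN1 at -0.90 ± 0.15). Under GSK126 in H1944 0 were higher and 2 lower (KMT2C at -0.38 ± 0.08, DPY30 at -0.50 ± 0.16). In A549 0 were higher and 1 lower under TGF-β1 (PSIP1 at -1.19 ± 0.21), and 0 passed under GSK126. Retinoic acid is a classical inducer of 3′ HOX genes. Of 18 listed genes of its pathway, 13 were tested in H1944, with 6 higher and 4 lower under TGF-β1 (ALDH1A1 at -2.32 ± 0.10, RDH10 at -1.79 ± 0.09) and 7 and 2 under GSK126 (ALDH1A3 at 3.66 ± 0.39, STRA6 at 1.66 ± 0.22). In A549 15 were tested, with 2 higher and 2 lower under TGF-β1 (RDH10 at -4.72 ± 0.26) and 3 and 3 under GSK126 (ALDH1A3 at 3.501 ± 0.34). Against the shares of all genes, 63.7% and 40.2% in H1944 and 19% and 6.77% in A549, these counts carry no test. ALDH1A1, ALDH1A3 and RDH10 are enzymes of retinoic acid synthesis, and STRA6 carries retinol into cells. The CDX genes, inducers of trunk HOX genes in the embryo, had too few reads to test, with 0 of 3 kept.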

How the data were processed

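Gene counts of 28 libraries were used. Per the submitters' processing notes, the authors made the deposited raw counts with bcl2fastq 2.20.0, STAR 2.6.0c and HTSeq 0.12.3 on GRCh38, and per the labels' protocols from a stranded total RNA kit. The annotation release, trimming and strand setting of the counting are not given in the sources used here. Of 60487 table rows 56753 matched GENCODE 29, which gave positions and exon lengths.

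CPM was computed here from the deposited totals. Tests used edgeR 4.0.16 (quasi-likelihood F test, TMM scaling, filterByExpr) in R 4.3.3, with Benjamini-Hochberg adjustment over all genes tested at 0.05. Each line was fitted by itself on its 5 groups, and the lines were compared in a fit of all 10 groups; 13 comparisons were made. Folds from TMM scaling differ from ratios of CPM. The script was tested on simulated counts. Promoter windows came from RefSeq; protein sequences were not used here. A549 GSK126 high C and TGF-β1 low B were not analysed here.

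Members and lists were chosen with earlier results of these data known. Values by library are given for members that passed and averaged 1 CPM or more in either arm. Of these, at most the 8 of largest absolute log2 fold change were taken against naive cells or between treatments. Between gates or lines at most 4 were taken. The member of highest level in each cluster and line is given too. For several members in H1944 arms of 6 libraries, only the lowest, median and highest library are given. HOXB13 and members named near a threshold were added after their values were seen. Non-members are the 2 of smallest adjusted p in each list and comparison with naive cells, and EZH2. One gene that this rule names is not reported here. Alternatives tried were RLE and no scaling, no filter on low counts, DESeq2 1.42.0, all libraries in 1 fit, each gate alone, the replicate block, other CPM limits, and leaving out libraries. Intervals and limits from 0 reads cover counting error only.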

Additional observations from a re-analysis of the deposited data

Results flagged for a closer look

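The response to treatment differed between the lines at 4 members under TGF-β1 and 1 under GSK126, by the test of the difference itself (edgeR's quasi-likelihood test in all 28 libraries, adjusted over all genes). As H1944 minus A549 on the log2 scale, HOXA3 differed by -1.43 under TGF-β1 (adjusted p = 1.76e-05), HOXC8 by 1.47 (adjusted p = 0.00889), HOXC4 by 1.29 (adjusted p = 0.0223) and HOXB6 by 1.23 (adjusted p = 0.0114). HOXC4 also differed by 1.30 under GSK126 (adjusted p = 0.0411). HOXA3 is lower under TGF-β1 in H1944 and near its naive level in A549, while the other 3 have positive log2 fold changes in H1944 and negative ones in A549, and of these HOXB6 and HOXC8 passed within H1944 and HOXC4 within neither line. The 4 TGF-β1 differences have the A549 naive library A and TGF-β1 high library B, the 2 with most olfactory receptor reads, among their libraries; without both, HOXA3, HOXB6, HOXC4 and HOXC8 still passed. The groups hold 2 or 3 libraries each, too few to look for single outlying libraries.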

How the results depend on the processing

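Over the 54 pairs of a member and a comparison past the test, 1396 values were recomputed under the alternatives: 1253 kept the call, 143 lost it and 0 changed direction, and 30 pairs kept the call throughout. The count of members past the test moved beyond 1.5 times as follows. With all 28 libraries in 1 fit it was 2 for A549 GSK126 against naive (main value 0), 1 for A549 TGF-β1 against naive (0), 0 for H1944 GSK126 against naive (2) and 0 for the H1944 gates under GSK126 (1). For H1944 GSK126 against naive it was 5 with no scaling beyond the deposited totals, an alternative chosen after seeing the data, 1 with no filter on low counts, 4 with the low gate alone (HOXA3, HOXA13, HOXB2, HOXD13) and 1 with the high gate alone. Without both background-rich libraries it was 1 for A549 TGF-β1 against naive. With the replicate block it was 0 for the GSK126 difference between the lines (1). Leaving out single libraries gave 0 to 1 for A549 TGF-β1 against naive, 1 to 4 for H1944 GSK126 against naive, 0 to 2 for A549 TGF-β1 against GSK126, 0 to 1 for the H1944 gates under GSK126, 0 to 2 for the GSK126 difference, 10 to 13 for H1944 TGF-β1 against naive (13), 15 to 19 for H1944 TGF-β1 against GSK126 (18), 10 to 14 for the naive lines (13) and 3 to 6 for the TGF-β1 difference (4). The causes were not tested.

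Libraries of the same letter in the gates of a treatment correlated at 0 to 0.13 (H1944 GSK126) and -0.029 to 0.165 (H1944 TGF-β1) in their deviations from group means, so the letters were not taken as pairs. With the replicate block the count was 13 for H1944 TGF-β1 against naive, 17 for H1944 TGF-β1 against GSK126, 9 for the naive lines and 2 for H1944 GSK126 against naive. The cutoff of 1 CPM is near the limit of the shallow libraries: at 0.5 CPM 34 members were expressed in H1944 GSK126 high cells and at 2 CPM 27, and no group's count of members at or above 1 CPM moved beyond 1.5 times.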
